A study of Homo sapiens with 8 samples.

Results

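Perlecan (HSPG2), agrin (AGRN), the nidogens (NID1 and NID2) and 6 laminin chains (LAMA3, LAMA4, LAMA5, LAMB1, LAMB3 and LAMC1) are components of basement membrane. Their transcripts were followed in xenograft tumours of SK-OV-3, a human ovarian cancer cell line. Members were the transcript clusters (groups of array probes that report 1 gene) annotated with 1 of these 10 symbols, the brightest cluster being taken for each symbol. Of the 10 genes 7 were measured, among 17709 gene-named clusters. LAMA3, LAMA5 and LAMB3 are not listed in the annotation used and were not analysed here. RNA came from 8 tumours with 1 Affymetrix expression array each. In 4 tumours the cells carried pIND_BORA, a vector that overexpresses BORA, the cofactor through which Aurora A activates PLK1 before mitosis. In the other 4 they carried the empty vector pIND_EV (EV). All 8 tumours grew from the same cell line implanted in nude mice, hosts that lack T cells but keep other leukocytes, stroma and vessels of mouse origin. Time of growth, any inducer of the vector and the age of the mice are not stated in the labels. The labels do not say whether tumours of a group came from separate mice or from more than 1 transfected pool, so p-values measure no more than the spread between these tumours, part of which may be technical.

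Basement membrane is a thin sheet of matrix beneath epithelium and endothelium and around muscle, nerve and fat cells. Laminins are trimers of an alpha, a beta and a gamma chain that polymerise on the cell surface through integrins and dystroglycan, and collagen IV forms a separate network. Nidogens and the heparan sulfate proteoglycans perlecan and agrin link these networks, and their heparan sulfate chains hold growth factors. Carcinoma cells make basement membrane components of their own and cross the sheet with membrane-bound and secreted proteases.

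BORA itself was at 12.55 to 13 on the log2 scale in BORA tumours and at 6.15 to 7.32 in EV tumours, in accord with the labels. Background was set, array by array, at the level that 95% of negative controls stayed under, which lay between 7.62 and 8.24. The 4 BORA arrays had 38.6% to 44.3% of clusters above it and the EV arrays 36.3% to 40.9%. The probability that a positive control was brighter than a negative one was 0.9721 to 0.9763 on BORA arrays and 0.9643 to 0.9715 on EV arrays, ranges that did not overlap. The part of this difference in array quality in the results was not tested. EV replicate 1 stood apart: it correlated with the other arrays at 0.943 to 0.954 over all clusters, and they with each other at 0.981 to 0.992. Its mean level over 7 squamous epithelial genes was 14.35, against 6.28 to 6.91 in EV replicates 2 to 4 and 6.01 to 6.67 in BORA tumours. Results of the members are therefore given over 8 arrays and over the 7 left without it, and those of other genes over 8, with the value over 7 beside it where it differs much.

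The promoters of HSPG2, LAMB1 and LAMC1 are shown because HSPG2 differed most between the groups and because the beta and gamma chain genes had the closest profiles of any pair of members over 8 arrays. Each stretch runs from 250 bases before to 50 bases after the RefSeq start in GRCh38.p14, 5′ to 3′ on the gene's strand. They lie at chr1:21937261-21937560 (minus strand), chr7:108003112-108003411 (minus strand) and chr1:183023170-183023469 (plus strand). Capitals mark GGGCGG or its reverse complement CCGCCC, the core of the GC box bound by SP-family factors, with overlapping matches counted separately.
HSPG2: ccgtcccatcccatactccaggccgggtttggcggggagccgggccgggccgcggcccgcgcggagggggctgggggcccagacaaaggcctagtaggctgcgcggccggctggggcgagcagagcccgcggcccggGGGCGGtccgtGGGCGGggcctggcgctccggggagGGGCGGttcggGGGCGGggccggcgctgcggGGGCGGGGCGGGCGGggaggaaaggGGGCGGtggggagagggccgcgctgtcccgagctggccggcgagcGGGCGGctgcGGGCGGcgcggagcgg
LAMB1: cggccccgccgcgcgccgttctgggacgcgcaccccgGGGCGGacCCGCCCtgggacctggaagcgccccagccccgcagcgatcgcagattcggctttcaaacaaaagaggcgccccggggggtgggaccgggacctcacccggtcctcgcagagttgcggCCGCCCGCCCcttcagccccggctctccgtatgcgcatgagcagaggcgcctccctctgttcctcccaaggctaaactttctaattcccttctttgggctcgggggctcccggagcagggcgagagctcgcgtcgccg
LAMC1: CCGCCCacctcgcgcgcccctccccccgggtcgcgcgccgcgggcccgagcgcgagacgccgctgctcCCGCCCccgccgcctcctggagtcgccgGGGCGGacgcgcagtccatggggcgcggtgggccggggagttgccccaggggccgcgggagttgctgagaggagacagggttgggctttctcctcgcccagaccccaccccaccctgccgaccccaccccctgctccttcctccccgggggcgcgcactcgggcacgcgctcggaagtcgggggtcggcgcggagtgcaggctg

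The HSPG2 promoter held 10 matches to GGGCGG on either strand and was 83.3% G or C. LAMB1 held 4 matches at 71.0% G or C and LAMC1 held 3 at 79.0%. Promoters of 6 of the 7 measured members could be matched by symbol. NID2 held 4 matches, NID1 held 1 and LAMA4, at 51.3% G or C, held 0. GGGCGG was present in 45.0% of all 35116 promoters of that length in the RefSeq table, whose median was 58.7% G or C, with quartiles of 47.0% and 68.0%. On either strand CCGGAA, an extended form of the ETS core GGAA, and TGACTCA, the AP-1 site, were in 0 of the 6 promoters. Of all promoters 17.2% and 4.95% held them. GGAA alone was not counted, and the stretches shown hold it. These counts describe letters in a window and say nothing of binding.

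Values are deposited signals read as log2, and a difference is BORA minus EV. The genes were chosen by their BORA and EV levels on these same arrays, with this contrast known, so their own differences are given as a description and nothing is read from how many were called. HSPG2 was the only 1 of the 7 measured members called in the limma fit over all clusters at an adjusted p under 0.05, over 8 arrays and over 7. Among all clusters 0.102% were called higher in BORA tumours over 8 arrays and 0.435% over 7, and 0 and 0.0791% were called lower. The groups did not overlap for HSPG2 and AGRN, 2 of 7 members, over 8 arrays and over 7, where 4.45% and 6.66% of all clusters were higher without overlap and 4.91% and 7.68% lower. Over 8 arrays all 7 differences were above 0, with a median of 0.72, while the median over all clusters was -0.026 and 46.6% of them were above 0. Without EV replicate 1 the median was 0.54, 6 of 7 differences were above 0, as were 46.1% over all clusters, and NID2 was below 0.

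**Figure D1:**
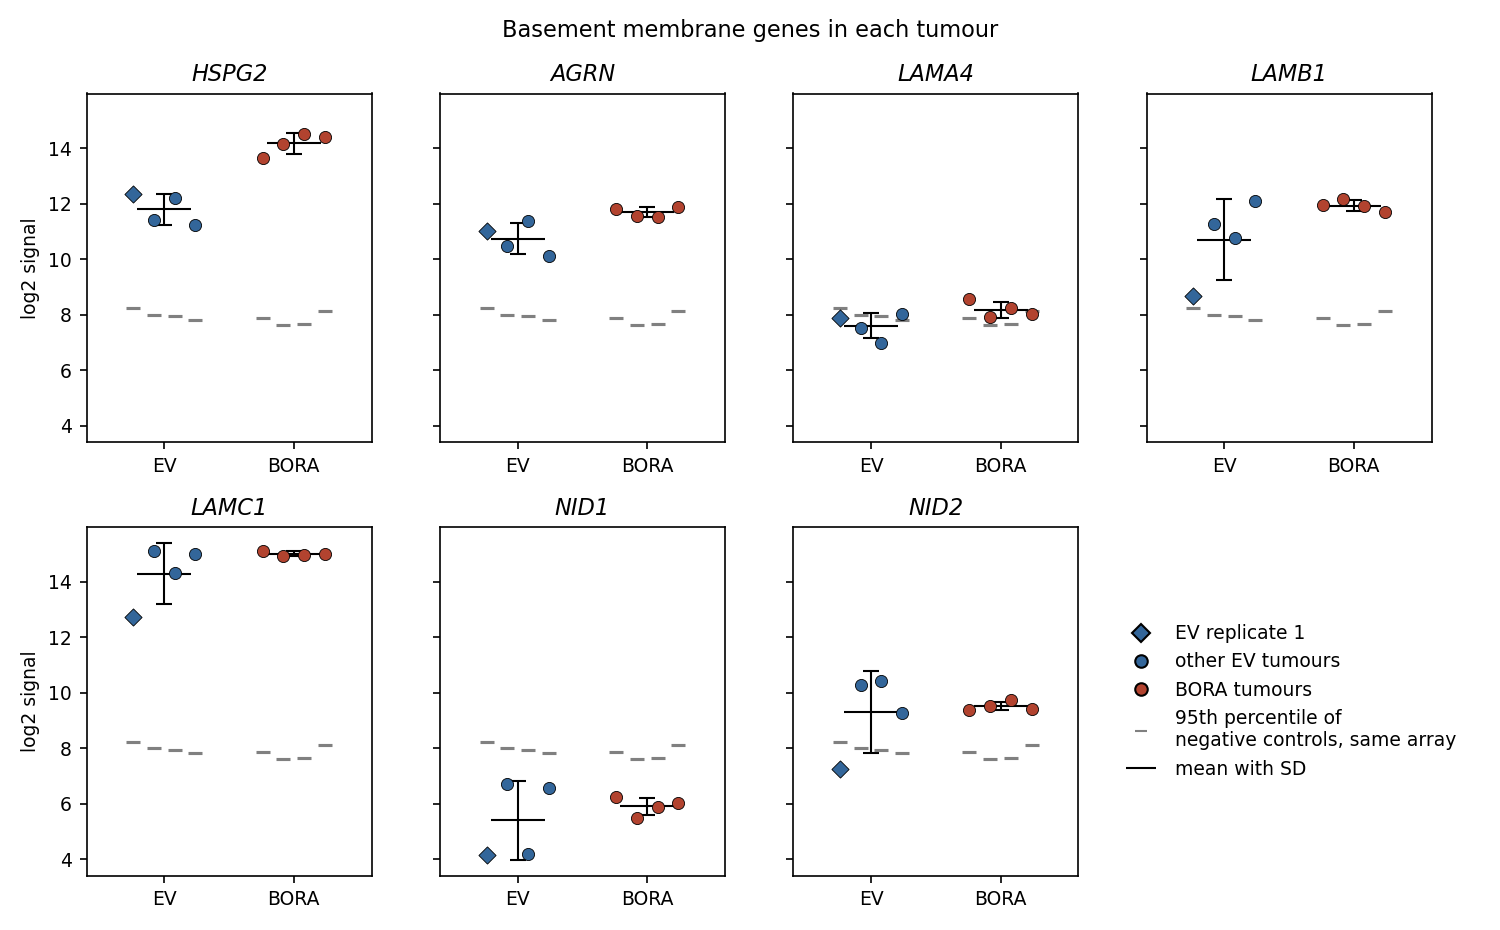
Log2 signal of each measured gene in each tumour, by group, on a common axis; points are arrays, black bars the mean with the SD of 4 tumours, and grey dashes the 95th percentile of the negative controls of the same array. HSPG2 and AGRN separate the groups, LAMB1, LAMC1 and NID2 fall in EV replicate 1 (diamond), and NID1 lies below the dashes in all 8 arrays.

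Perlecan is the large heparan sulfate proteoglycan of basement membrane. HSPG2 was at 13.66, 14.16, 14.53 and 14.40 in BORA replicates 1 to 4 and at 12.35, 11.40, 12.22 and 11.24 in EV replicates 1 to 4. Every BORA tumour lay above every EV tumour, with a gap of 1.31 between the lowest BORA and the highest EV value. Means were 14.19 ± 0.38 and 11.80 ± 0.56 (SD, n = 4 each), a log2 difference of 2.39 (SE 0.29), or 5.23-fold with a 95% interval of 3.31 to 8.26. EV replicates 1 and 3 were the higher EV tumours, and without EV replicate 1 the difference was 2.57 (SE 0.27), or 5.93-fold. The limma adjusted p was 0.0350 over 8 arrays and 0.00413 over 7. Over 8 arrays the call was lost on leaving out any 1 array other than EV replicate 1, with adjusted p from 0.0573 to 0.120 and differences from 2.20 to 2.56. Over 7 arrays it held on leaving out each further array in turn. All 8 values were well above the negative control percentile, so the fold does not rest on a level near background.

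Agrin is the second proteoglycan of the group, known for clustering acetylcholine receptors at the synapse and for binding laminin and dystroglycan elsewhere. AGRN was at 11.82, 11.55, 11.54 and 11.89 in BORA tumours and at 11.01, 10.47, 11.37 and 10.13 in EV tumours. The groups were separated by 0.17, less than the SD of the EV tumours (0.55), with EV replicate 3 closest to the BORA range. The difference was 0.96 (SE 0.26), or 1.94-fold with an interval of 1.30 to 2.90, and it did not pass (limma adjusted p = 0.191). Over 7 arrays it was 1.04 (limma adjusted p = 0.109). On leaving out EV replicate 3 as well, which left only EV replicates 2 and 4, it was 1.40 (adjusted p = 0.0215). This was the only 1 of 16 alternatives over 7 arrays to pass, with adjusted p from 0.0215 to 0.335. Over 8 arrays 0 of 17 passed. In EV tumours AGRN and HSPG2 ran in the same way, both higher in replicates 1 and 3 than in replicates 2 and 4. In BORA tumours they did not. HSPG2 was highest in replicate 3 (14.53), where AGRN was lowest (11.54), and lowest in replicate 1 (13.66), where AGRN was at 11.82.

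The laminin chains LAMA4, LAMB1 and LAMC1 can join in 1 trimer, which is typical of vessels, fat and muscle. LAMB1, the beta chain gene, was at 11.95, 12.19, 11.91 and 11.69 in BORA tumours and at 8.66, 11.28, 10.78 and 12.12 in EV tumours. EV replicate 1 was far below the rest, and EV replicate 4 lay inside the BORA range. The difference of 1.23 (SE 0.60) over 8 arrays became 0.54 (SE 0.28) over 7, where the 95% interval ran from -0.061 to 1.15. The limma adjusted p was 0.383 and 0.380.

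LAMC1, the gamma chain gene shared by most laminins, was at 15.13, 14.92, 14.98 and 15.02 in BORA tumours and at 12.72, 15.13, 14.33 and 15.01 in EV tumours. The BORA values spread over 0.21, and EV replicates 2 and 4 lay among them. The difference was 0.72 (SE 0.46) over 8 arrays and 0.19 (SE 0.21) over 7, with a 95% interval of -0.26 to 0.64 over 7. It did not pass in either (limma adjusted p = 0.495 and 0.703).

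LAMA4, an alpha chain gene of mesenchymal and endothelial laminins, was at 8.56, 7.91, 8.24 and 8.03 in BORA tumours and at 7.87, 7.54, 7.0 and 8.01 in EV tumours. The lowest BORA value lay 0.10 below EV replicate 4, the highest EV value, so the groups overlapped. It exceeded background in 3 BORA arrays and 1 EV array, which makes the size of the difference uncertain (0.58, SE 0.24; 0.67, SE 0.25, over 7 arrays). Neither passed (limma adjusted p = 0.321 and 0.239).

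Nidogens tie laminin to collagen IV. NID2 was at 9.39, 9.54, 9.74 and 9.42 in BORA tumours and at 7.25, 10.29, 10.42 and 9.28 in EV tumours. The BORA values lay between EV replicate 4 below and EV replicates 2 and 3 above, and EV replicate 1 was under its array's background. The direction turned with that tumour, from 0.21 (SE 0.60) over 8 arrays to -0.47 (SE 0.26) over 7. Neither value passed (limma adjusted p = 0.888 and 0.416). NID1 was below background in all 8 arrays, at 5.50 to 6.23 in BORA tumours and at 4.16, 6.71, 4.18 and 6.56 in EV tumours. Its EV values fell into a low and a high pair, on either side of the BORA range. The difference was 0.50 (SE 0.59) over 8 arrays and 0.087 (SE 0.50) over 7, neither passed (limma adjusted p = 0.715 and 0.952), and no fold is given for a gene below background.

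**Figure D2:**
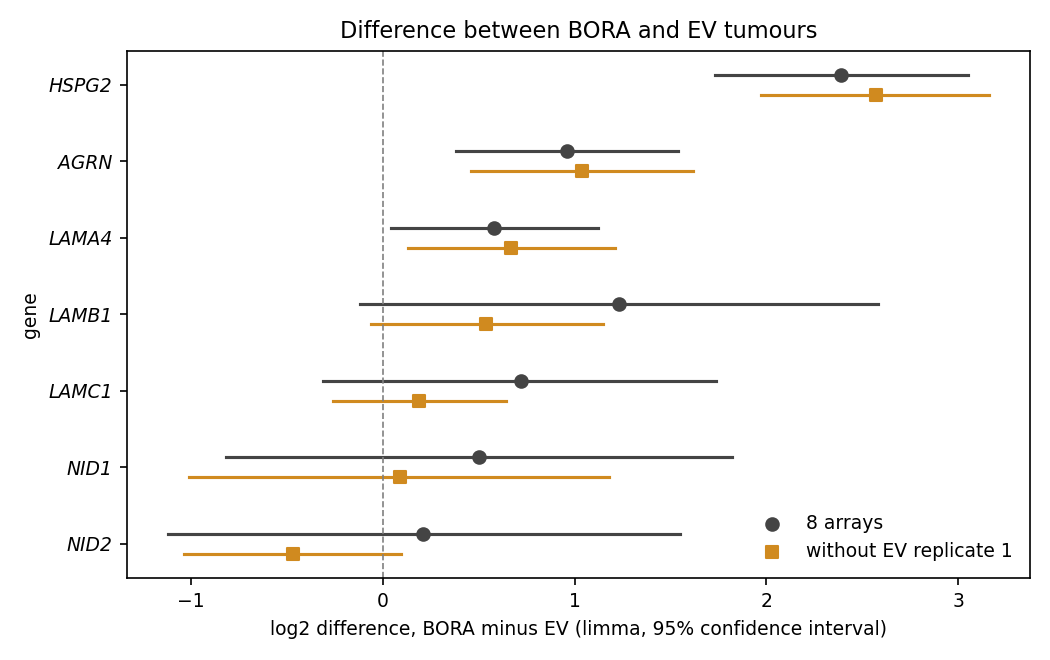
Log2 difference between BORA and EV tumours for each measured gene, with 95% confidence intervals from limma, over 8 arrays (circles) and without EV replicate 1 (squares). The HSPG2 intervals start at 1.73 and 1.97, those of LAMB1, LAMC1 and NID2 narrow without that array, and the NID2 estimate moves from 0.21 to -0.47.

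The tumour EV replicate 1 marked the members unequally. Against the mean of EV replicates 2 to 4 it was lower by 2.74 for LAMB1 (difference -2.74), by 2.74 for NID2 (-2.74), by 2.10 for LAMC1 (-2.10) and by 1.66 for NID1 (-1.66). HSPG2 (0.73), AGRN (0.35) and LAMA4 (0.35) were not lower there. It was the lowest of the 8 arrays for 4 of 7 members, as for 22.2% of all clusters and 34.7% of those above background in at least 4 arrays. It was lower than the mean of the other EV tumours by at least 1 log2 unit for the same 4 members, as for 6.53% and 12.0% of clusters. NID1, 1 of these 4, was below background in all 8 arrays, so the shares above background do not cover it. Its value of 4.16 there was next to 4.18 in EV replicate 3. All 7 members ranged wider among EV than among BORA tumours, as did 61.8% of all clusters. Of all clusters 40.1% ranged wider among EV replicates 2 to 4 than among BORA tumours. Each member also kept a larger SD among EV replicates 2 to 4 than among BORA tumours, for example LAMC1 (0.43 against 0.089) and HSPG2 (0.53 against 0.38). The share of all clusters with a larger SD there was not computed, and the share given for ranges is another measure. The part of the squamous genes of this tumour in its levels was not tested. In bulk tissue fewer cells of a kind and less RNA per cell cannot be told apart.

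**Figure D3:**
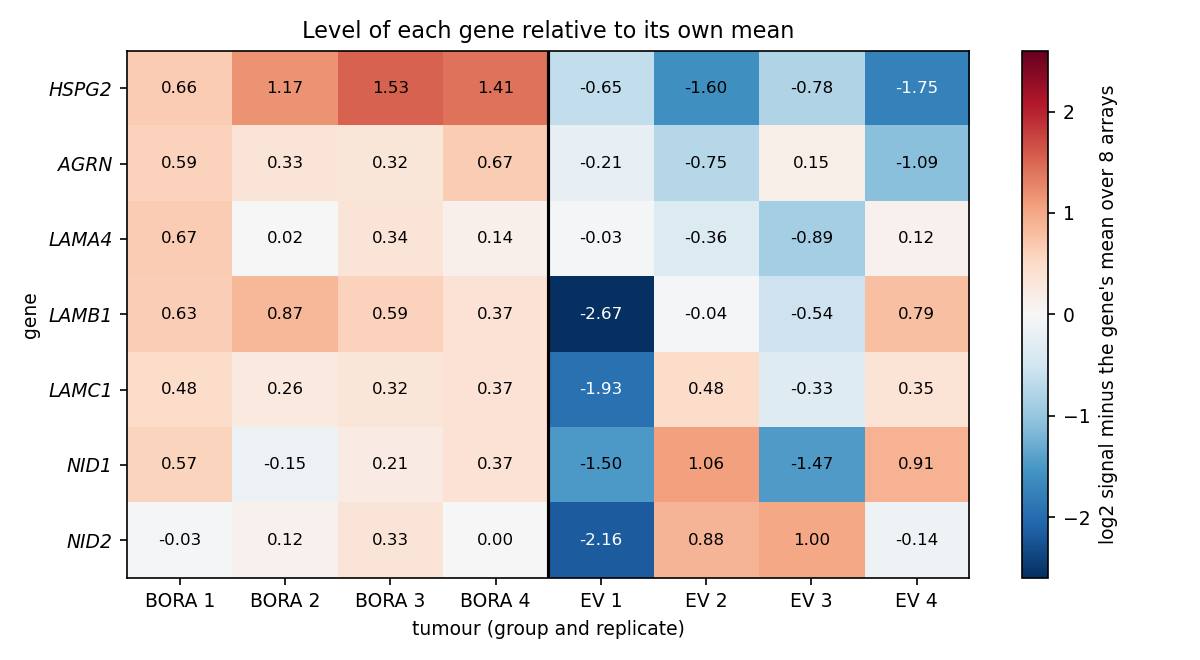
Log2 signal of each measured gene in each tumour minus the gene's own mean over the 8 arrays, with red above and blue below that mean. HSPG2 runs from 0.66 to 1.53 in the BORA columns and from -1.75 to -0.65 in the EV columns, while LAMB1, LAMC1 and NID2 stand at -2.67, -1.93 and -2.16 in EV replicate 1.

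Profiles were compared by the root mean square difference between gene-centred log2 values. Among 7369 clusters above background in at least 4 arrays, the 5 closest to HSPG2 over 8 arrays were ERG at 0.52, MAP2 at 0.53, BST2 at 0.58, CADM1 at 0.59 and BCAR1 at 0.62. ERG encodes an ETS transcription factor of endothelium, MAP2 a microtubule-associated protein, BST2 the interferon-induced tetherin, CADM1 an adhesion molecule and BCAR1 the adhesion scaffold p130Cas. Since HSPG2 separates the groups, genes close to it must do so too, and their differences are not a further result. ERG, for example, was at 9.61, 10.41, 9.45 and 10.26 in BORA tumours and at 8.30, 7.0, 7.15 and 7.67 in EV tumours. AGRN was the member closest to HSPG2, at 0.78 and rank 29 among the clusters compared, and NID1 the farthest, at 1.58. The member closest to AGRN was LAMA4, at 0.63. LAMB1 and LAMC1 were 0.43 apart, and 36 other clusters were closer to LAMB1 than LAMC1 was. Over 7 arrays the member closest to LAMB1 was LAMA4, at 0.27. MMP2, a gelatinase that degrades collagen IV, then lay at 0.12 from LAMB1, a value looked up after the data were seen. Among the clusters above background it came after CEMIP2, at 0.11, and before VPS53 and NGRN, at 0.14 each. Over 8 arrays MMP2 was not among the 5 closest to LAMB1.

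Of the genes that build, bind or cut basement membrane around these members, 79 of 88 listed were measured, in 8 lists. MMP14 rose and 78 did not pass over 8 arrays, and the same count held over 7, that is 1.27% of these genes called. Among all clusters 0.102% were called over 8 arrays and 0.514% over 7. The lists were chosen with earlier results of these data known, and nothing is read from the share called. The median difference of the 79 genes was 0.060 over 8 arrays and 0.024 over 7, and 44 and 43 were above 0. Counts at an unadjusted limma p under 0.05 are given for the lists with no call over 8 arrays, where 7.37% of all clusters were higher and 7.17% lower at that level, and 7.70% and 7.62% over 7. MMP14, a membrane-anchored protease that cleaves pericellular matrix and activates MMP2, was at 10.28, 10.43, 10.16 and 9.99 in BORA tumours and at 7.21, 6.58, 6.79 and 5.17 in EV tumours. The EV values were all below background, so the difference of 3.78 (SE 0.38, limma adjusted p = 0.0197) rests on a level near it. The call was lost on leaving out any 1 BORA array or EV replicate 2 or 3 (adjusted p = 0.0513 to 0.105). Without EV replicate 1 it was 4.03 (adjusted p = 0.000739). The other proteases with the smallest p did not pass: MMP2 was at 0.89 (adjusted p = 0.307) and MMP7, or matrilysin, at 1.13 (0.437), and without EV replicate 1 these were 0.59 (0.337) and 0.48 (0.578).

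None of the other laminin chains passed (0 of 5, and 0 at an unadjusted limma p under 0.05), their median difference was -0.21, and 4, LAMA1, LAMA2, LAMB4 and LAMC3, were below background in every array. LAMB2, the beta chain that can replace LAMB1, named after its values were seen, was above background throughout and differed by -0.0071 (SE 0.16). LAMA2, LAMA1 and LAMB4 were at -0.29, -0.21 and -0.29.

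Collagen IV forms the second network of the sheet. None of 8 basement membrane collagens passed. At an unadjusted limma p under 0.05, 3 were higher and 0 lower over 8 arrays, and 3 higher and 3 lower over 7 (COL4A4, COL4A6 and COL15A1, at -0.63, -0.74 and -0.47). Of the 8 collagens 5, these 3 among them, were below background in every array, and the other 3 were higher in BORA tumours without overlap. Of all clusters 4.45% were higher and 4.91% lower without overlap over 8 arrays. Over 7 arrays 3 collagens were higher and 3 lower without overlap, as were 6.66% and 7.68% of all clusters. COL4A1 was at 8.88, 9.15, 9.40 and 8.44 in BORA tumours and at 5.28, 7.14, 5.95 and 8.04 in EV tumours, with 3 of these EV values below background. The difference was 2.37 (SE 0.53, limma adjusted p = 0.141) over 8 arrays and 1.93 (adjusted p = 0.0699) over 7. COL4A2, its partner chain, was at 11.47 to 11.62 in BORA tumours and at 9.02, 11.23, 10.35 and 10.49 in EV tumours (difference 1.28, adjusted p = 0.222; 0.86 over 7 arrays). COL18A1, which encodes the heparan sulfate collagen that yields endostatin, was at 11.34 to 12.10 and at 9.86, 10.97, 11.10 and 9.94 (difference 1.22, adjusted p = 0.176; 1.02 over 7 arrays). All 3 were lowest in EV replicate 1.

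Among other components 0 of 13 passed, with 1 higher and 1 lower at an unadjusted limma p under 0.05. HMCN1, the hemicentin gene, was below background in every array at a difference of 1.5 (limma adjusted p = 0.137). FRAS1, an epithelial matrix protein, was at 7.57 to 7.91 in BORA tumours and at 8.10, 8.26, 9.18 and 8.62 in EV tumours, lower without overlap (-0.84, adjusted p = 0.193; -0.99, adjusted p = 0.0823, over 7 arrays). It exceeded background in only 2 BORA arrays and 3 EV arrays, so the size of the difference is uncertain. EGFLAM, or pikachurin, was below background at -0.42. SMOC2, a SPARC-related protein chosen after its values were seen, was at 8.15 to 8.96 in BORA tumours and at 7.44, 9.90, 10.95 and 9.55 in EV tumours, so it was lower without overlap (-1.57, adjusted p = 0.0571) only where EV replicate 1 was left out. Its value in EV replicate 1 was below background.

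Enzymes that fold and cross-link matrix proteins did not pass (0 of 12, with 2 higher and 0 lower at an unadjusted limma p under 0.05). SERPINH1, the collagen chaperone, was at 11.39 to 12.06 in BORA tumours and at 8.74, 10.75, 11.36 and 11.01 in EV tumours (1.22, limma adjusted p = 0.313), and the difference was 0.65 (0.197) without EV replicate 1. P4HB, protein disulfide isomerase, was at 14.50 to 14.98 and 14.15 to 14.39 (0.46, adjusted p = 0.241), and P4HA2, a prolyl hydroxylase subunit, at -0.61 (0.601), or -0.083 (0.924) without EV replicate 1. Genes that make or trim heparan sulfate, the chain carried by perlecan and agrin, did not pass either (0 of 15, with 2 higher and 2 lower unadjusted; median 0.19, 12 above 0). GLCE, the epimerase, was at -0.38, SULF1, a sulfatase, at -0.40 and EXTL2 at 0.50, and all 3 were below background in every array. EXT1, a chain polymerase chosen after its values were seen, was at 12.43 to 13.03 in BORA tumours and 11.99 to 12.43 in EV tumours (0.41, adjusted p = 0.338).

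Receptors and the enzymes that glycosylate dystroglycan closed the list, and none passed (0 of 12 and 0 of 4). At an unadjusted limma p under 0.05 there were 1 higher and 1 lower among receptors, and 1 higher and 0 lower among the enzymes. ITGA3, an integrin chain that binds laminin, was at 16.37 to 16.79 in BORA tumours and at 15.96 to 16.31 in EV tumours, higher without overlap (0.41, limma adjusted p = 0.283). LRP4, the agrin receptor, was at -0.62 (0.271) and ITGA6, another laminin-binding integrin chain, at -0.49 (0.426), and without EV replicate 1 these were -0.44 (0.295) and -0.23 (0.600). EV replicate 1 was the highest array for 6 of the 12 receptors, ITGA2, ITGA6, ITGB4, DDR1, LRP4 and SDC1, as for 20.6% of all clusters. ITGB4, the integrin chain of hemidesmosomes, named after its values were seen, was at 14.73 there and at 12.85 to 13.56 elsewhere. POMGNT1, of the dystroglycan pathway, was at 9.41 to 9.71 and 8.81 to 9.26 (0.53, adjusted p = 0.209), with POMT1 at -0.35 and POMT2 at -0.27.

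**Figure D4:**
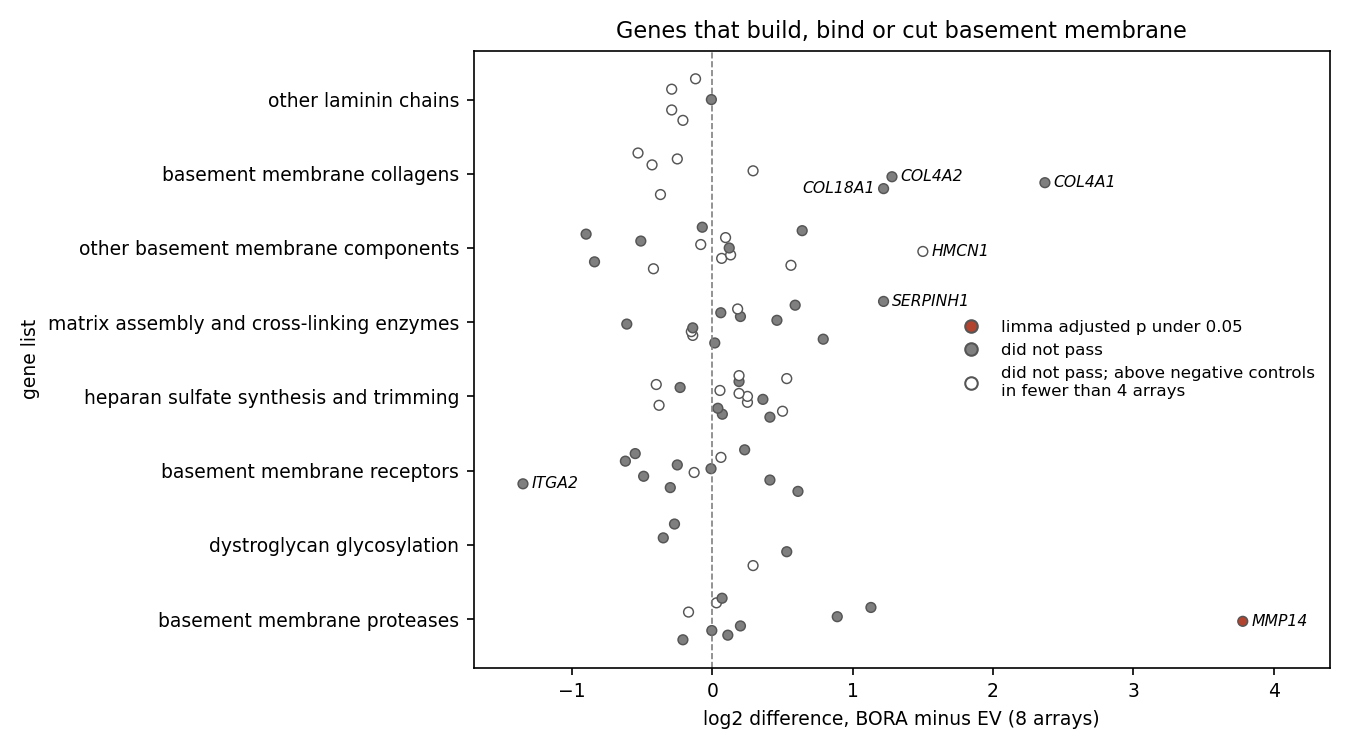
Log2 difference between BORA and EV tumours over 8 arrays for the 79 measured genes of the 8 lists, 1 point per gene; open points exceeded background in fewer than 4 arrays. MMP14 at 3.78 is the only point called, followed by COL4A1 at 2.37 and HMCN1 at 1.5, while most points lie near 0.

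Markers of cells that also make basement membrane were read on the same arrays, where human probes may detect mouse RNA only in part. Of 10 endothelial genes 8 were below background in every array and 0 were above it in 4 or more; their mean level was 5.39 to 5.64 in BORA tumours and 5.18 to 5.72 in EV tumours. CDH5 and PECAM1, the junction genes of endothelium, were higher in BORA tumours without overlap, by 2.28 and 1.56 (limma adjusted p = 0.129 and 0.137, above the threshold), and exceeded background in 2 and 3 arrays. The other 8 endothelial genes were all lower in BORA tumours and the median of the 10 was -0.21, with CLDN5, a tight junction gene, at -0.49 (adjusted p = 0.273). Of 8 fibroblast and pericyte genes PDGFRA, PDGFRB, DCN and THY1 were below background in every array. COL1A1, COL1A2 and ACTA2 were above it in all 8 arrays and LUM in 7. The mean level of the 8 genes was 8.11 to 8.50 in BORA tumours and 7.66 to 8.55 in EV tumours. Differences were above 0 for 3 of them over 8 arrays and for 2 over 7. LUM was at 1.14 (limma adjusted p = 0.576) over 8 arrays and at 2.07 (0.112), without overlap, over 7. PDGFRA and THY1 were lower without overlap in both. Of 8 leukocyte genes 5 were below background in every array. The mean level of all 8 was 6.52 to 6.88 in BORA tumours and 6.32 to 7.69 in EV tumours. PTPRC fell without EV replicate 1 (-2.07, limma adjusted p = 0.0194) but did not pass over 8 arrays (-0.68, adjusted p = 0.803). Of 9 genes of the carcinoma line 7 were above background in at least 4 arrays, PAX8 among them, while MUC16 and WT1 were below it in all. The mean level of the 9 was 11.62 to 11.82 in BORA tumours and 11.28 to 12.44 in EV tumours. EV replicate 1 was the lowest array for PAX8, EPCAM, KRT7, KRT8 and KRT18, 5 of the 9, and the highest for KRT19 and CDH1. Only PAX8 was higher without overlap (1.10, limma adjusted p = 0.199, and 0.79, 0.121, over 7 arrays), and none was lower. Beside these marker genes, 4.45% of all clusters were higher and 4.91% lower without overlap over 8 arrays, and 6.66% and 7.68% over 7. The part of these cell types in the levels of the members was not tested.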

How the data were processed

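Total RNA of 8 xenograft tumours was measured on Affymetrix arrays. The authors deposited 1 log2-scale value per probe set and array, for which the submitters' processing notes name Affymetrix Expression Console; its version, and the background correction, summary and normalization, are not given in any label or header used. The log base is read from the range of the values (medians 6.96 to 7.07), as no label states it, and folds hold only on that reading. The array named in the series' design text differs from the design to which the row identifiers and the annotation belong. Of 24351 rows 17709 carried 1 gene symbol and 0 several; 3 of the 10 members and 9 of 88 partner genes are not listed.

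Each cluster was fitted with limma 3.58.1 (lmFit, eBayes) in R 4.3.3, BORA minus EV, without covariates or filter, with Benjamini-Hochberg adjustment over all clusters and a threshold of 0.05. No level of a gene was set against that of another, as probes differ. Members and lists were chosen with earlier results of these data known. Partner genes named with values were those past the threshold over 8 or 7 arrays and up to 3 with the smallest p; others are marked as named after their values were seen, apart from those listed for being highest, lowest or below background, and marker genes are named only in part. The fit was tested on simulated data. Alternatives were the replicate block, quantile normalization, median centring, trend with robust fitting, array weights, a filter on dim clusters (above background in at least 4 arrays), the mean of all clusters of a symbol, a threshold of 0.1, no moderation, and leaving out each array. The number of arrays limits the precision.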

Additional observations from a re-analysis of the deposited data

Results flagged for a closer look

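Among 62 groups of 4 tumours (7 members and 24 partner genes, in BORA and in EV tumours), 2 held a tumour whose gap to its nearest neighbour took up more than a share of 0.829 of the group's range, and chance marks about 1 group in 20. EGFLAM in BORA replicate 2 was at 3.52, with the other BORA tumours at 3.91 to 3.97, all below background. P4HB in EV replicate 4 was at 14.15, with the other EV tumours at 14.36 to 14.39. Neither gene is a member, and none of the 14 groups of members met this criterion.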

How the results depend on the processing

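No member was called over 8 arrays with the replicate block or without moderation (0 in each), and leaving out single arrays gave 0 to 1 called over 8 arrays and 1 to 2 over 7, AGRN being the second, while the calls among all 17709 clusters ran from 1 to 91 and from 25 to 152. With the block or without moderation 1 cluster was called over 8 arrays, against 18. Without moderation 0 were called over 7. The partner genes behaved alike over 8 arrays: 0 with the replicate block, 0 without moderation and 0 to 1 without single arrays. Over 7 arrays 2 partner genes were called with the replicate block (HMCN1 added), 2 with trend and robust fitting (SMOC2 added, lower), 3 with array weights (SMOC2 and COL4A1), 5 at a threshold of 0.1 (HMCN1, FRAS1, SMOC2 and COL4A1), 0 without moderation, and 1 to 3 without single arrays. Members whose groups did not overlap numbered 2 to 4 without single arrays, 4 without EV replicate 4 (LAMA4 and LAMB1 added), where 1229 of all clusters were higher and 1313 lower without overlap, against 788 and 870 with all arrays. Replicate numbers did not pair the tumours: deviations of same-numbered tumours correlated at -0.113 to 0.071, and only 1 of 4 BORA tumours correlated best with its own number. With the block the HSPG2 adjusted p in limma was 0.155 over 8 arrays and 0.00601 over 7; without moderation it was 0.185 and 0.252. Signs turned for NID2 over 8 arrays (-0.36 with array weights, -0.47 to 0.58 without single arrays, lowest without EV replicate 1), for NID1 over 7 (-0.020 with the block, -0.12 with array weights, -0.73 to 0.53 without single arrays, negative without BORA replicate 1, at -0.020, and EV replicate 3), for LAMC1 over 7 (-0.056 to 0.35 without single arrays, lowest without EV replicate 3), for LAMB4 over 7 (-0.51 to 0.16 without single arrays, highest without EV replicate 4) and for P4HA2 over 7 (0.14 with the block, -0.30 to 0.14 without single arrays). The cause was not tested. Of 229 recomputed member differences 211 kept direction and side of the threshold, and part of this was fixed in advance. No member had more than 1 cluster, so averaging the clusters of a symbol repeated the same values. A threshold of 0.1, trend with robust fitting, or no moderation cannot turn a sign. The main fit called only HSPG2, and over 8 arrays it lost that call in 9 of 17 alternatives. Scaling by the array median moved the median of all clusters from -0.026 to -0.080. Signals near background limit NID1 and LAMA4, and the number of arrays limits all.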
